A study of Mus musculus with 22 samples.

Results

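Integrins are the receptors with which epithelial cells hold on to the matrix beneath them, and 10 genes for integrin subunits of epithelial cells were followed here across 22 RNA-seq libraries of mouse duodenal organoids. They were picked by name, with earlier results of these data known, from the 52636 genes of the deposited table. They comprise 5 alpha subunits (Itga2, Itga3, Itga5, Itga6 and Itgav) and 5 beta subunits (Itgb1, Itgb4, Itgb5, Itgb6 and Itgb8). The organoids were grown from the duodenum of adult wild-type mice of the outbred CD1 strain, and each of 4 lines came from a single mouse. Every line, numbered 1 to 4 here, gave 1 untreated library. Cold atmospheric plasma (CAP), an ionised gas from a jet, was used in 6 further groups of 3 libraries, 1 each from lines 1, 2 and 4. Direct CAP hit the culture itself at day 1, with a change of medium after 30 min or after 24 h. For indirect CAP, organoids were given the medium of another treated culture, and for plasma-activated medium (PAM), medium exposed to the jet without organoids, in both cases starting at day 1 or at day 2. All 4 groups given such media were collected on the same day. Those started at day 1 had fresh medium between exposure and collection. Those started at day 2 were collected straight after exposure, and their media had been made a day earlier. The labels of the libraries give 30 min for the day 1 groups of both media and 24 h for their day 2 groups, whereas the methods of the study give 24 h for all 4 groups. The time at which the 30 min group was collected is not certain from these sources. All cultures, controls included, grew in Matrigel, a basement membrane extract rich in laminin. The question behind the comparisons is how direct CAP and media conditioned by it change gene expression in healthy intestinal epithelium.

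An integrin is a pair of an alpha and a beta chain, and the pair decides which matrix protein is bound. The beta1 chain joins with alpha2 to bind collagen, with alpha3 and alpha6 to bind laminin, and with alpha5 to bind fibronectin. The beta4 chain joins only with alpha6 and anchors the cell to laminin through hemidesmosomes, which are linked to keratin filaments. The alphav chain joins with beta5, beta6 and beta8 among others, and alphavbeta6 and alphavbeta8 are known to release active TGF-beta from its latent form. In the intestine, laminin-binding integrins hold crypt and villus cells on the basement membrane.

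The deposited values are in a unit called CP20M. The study's text defines the unit per kilobase of transcript, but the low values of all genes in a library are spaced by 1 common factor, so they are taken here as counts of reads brought to 20 M in each library and not divided by gene length. Levels per kb below were divided by length here and rest on that reading. Each library's total was close to 20 M by construction. The reads actually counted, estimated from the spacing of low values, lay between 19.38 and 28.68 M. A sum over 8 epithelial markers lay between 125189 and 134072 in untreated libraries, and between 147308 and 203006 in the 9 libraries exposed from day 1 for 24 h, whether to direct CAP, to indirect CAP or to PAM. By the looser rule defined below, 5 of the 8 were higher in these 9 libraries (Krt18, Krt19, Krt8, Vil1 and Cdh1), beside 14.8% of all genes. Lower was 1, Epcam, at 11504 to 13827 against 15909 to 17187, beside 18.7% of all genes. Over all 22 libraries, sums over 8 leukocyte, 8 stromal and 5 endothelial markers reached at most 518, 90 and 112. The endothelial sum was 12 to 33 in untreated libraries and 31 to 112 in the 9 libraries, where Tek, 1 of 2 endothelial markers tested, was higher by 1.73 log2 (SE 0.50, limma adjusted p = 0.0172), and the part of this in the results below was not tested. Some defining markers of these cells were near 0: Ptprc lay between 0 and 12, Itgb2 between 0 and 3 and Cdh5 between 0 and 3. Lum was at 0 in every library. Of the 8 leukocyte markers, 4 were high enough to be tested in these 9 libraries against the controls. These were Cd68 and Lyz2, given below, Csf1r (0.04 log2, SE 0.08, limma adjusted p = 0.748) and Cd74 (-0.91, SE 0.45, limma adjusted p = 0.138). Libraries of lines 1 and 2 among the controls did not resemble the treated libraries of their own line. After removal of group means, the untreated library of line 1 had a median correlation of 0.08 with treated libraries of line 1 and 0.54 with those of line 2, and that of line 2 had 0.13 with its own line and 0.35 with line 1. Among treated libraries, all 45 pairs of the same line correlated above 0.1. The comparisons below therefore take each library by its group, and differences within a line are given only between treated groups. Where a fit against the controls has the line as a replicate block, it is an alternative setting. Such a fit rests on the line labels of these controls, which are in doubt for lines 1 and 2.

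Sequence in front of the genes is shown for a pair of subunits that form 1 receptor and that were higher after treatment, Itgav and Itgb5, and for Itgb1, the common partner, which did not pass the test. Each is the 250 bases before the start of transcription given by RefSeq on GRCm38.p6, read 5′ to 3′ on the strand of the gene, which is the plus strand in all 3. Capitals mark matches, on either strand, to the GC box (GGGCGG) and to the TEAD motif (GGAATG). The regions are chr2:83724147-83724396 for Itgav, chr16:33829415-33829664 for Itgb5 and chr8:128685404-128685653 for Itgb1.
Itgav promoter: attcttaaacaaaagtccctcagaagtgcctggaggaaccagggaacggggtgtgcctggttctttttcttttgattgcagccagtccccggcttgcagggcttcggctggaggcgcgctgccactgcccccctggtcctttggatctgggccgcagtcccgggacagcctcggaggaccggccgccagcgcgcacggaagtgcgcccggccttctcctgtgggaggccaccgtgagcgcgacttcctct
Itgb5 promoter: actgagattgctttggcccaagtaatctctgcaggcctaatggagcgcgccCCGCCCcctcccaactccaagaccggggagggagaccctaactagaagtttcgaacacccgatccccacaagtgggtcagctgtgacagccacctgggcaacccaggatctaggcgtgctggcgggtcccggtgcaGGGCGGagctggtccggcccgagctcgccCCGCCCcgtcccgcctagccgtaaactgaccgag
Itgb1 promoter: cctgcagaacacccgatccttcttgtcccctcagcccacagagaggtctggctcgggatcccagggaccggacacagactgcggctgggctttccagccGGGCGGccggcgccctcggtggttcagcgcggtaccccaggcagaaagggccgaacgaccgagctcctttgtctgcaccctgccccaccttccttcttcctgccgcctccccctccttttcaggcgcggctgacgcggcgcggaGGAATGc
RefSeq entries were found for 8 of the 10 genes, with 10 starts in all. Itga6 and Itgb4 were not matched. A GC box stood in 5 of the 10 windows, against 32.7% of 32851 windows of the same length in front of all genes. The TEAD motif stood in 1, that of Itgb1, against 12.6% of all windows. The AP-1 motif TGANTCA stood in none of the 10, against 6.75% of all. These are matches of letters and not sites shown to be bound.

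In untreated organoids, the beta1 chain and the laminin-binding chains were the most abundant. Divided by the exon length of each gene, which allows levels to be compared between genes, Itgb1 had 1166 ± 100.03 per kb (mean ± SD, n = 4). Itga3 had 762 ± 50.3, Itga6 745 ± 77.2 and Itgb4 743 ± 37.4 per kb. The ranges of these 3 overlapped, so that their order is not set by 4 libraries, whereas Itgb1 was above each of them in all 4. Itga2 followed at 167 ± 44.1 per kb. Itgav at 99.0 ± 14.0, Itgb5 at 93.1 ± 12.9 and Itgb6 at 68.9 ± 13.9 per kb were next, and each of these 3 overlapped its neighbour in this order. Itga5 had 13.0 ± 5.01 and Itgb8 0.63 ± 0.39 per kb. Exon length was taken over all annotated isoforms, so a level per kb is a rough one where a short isoform is used.

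**Figure D1:**
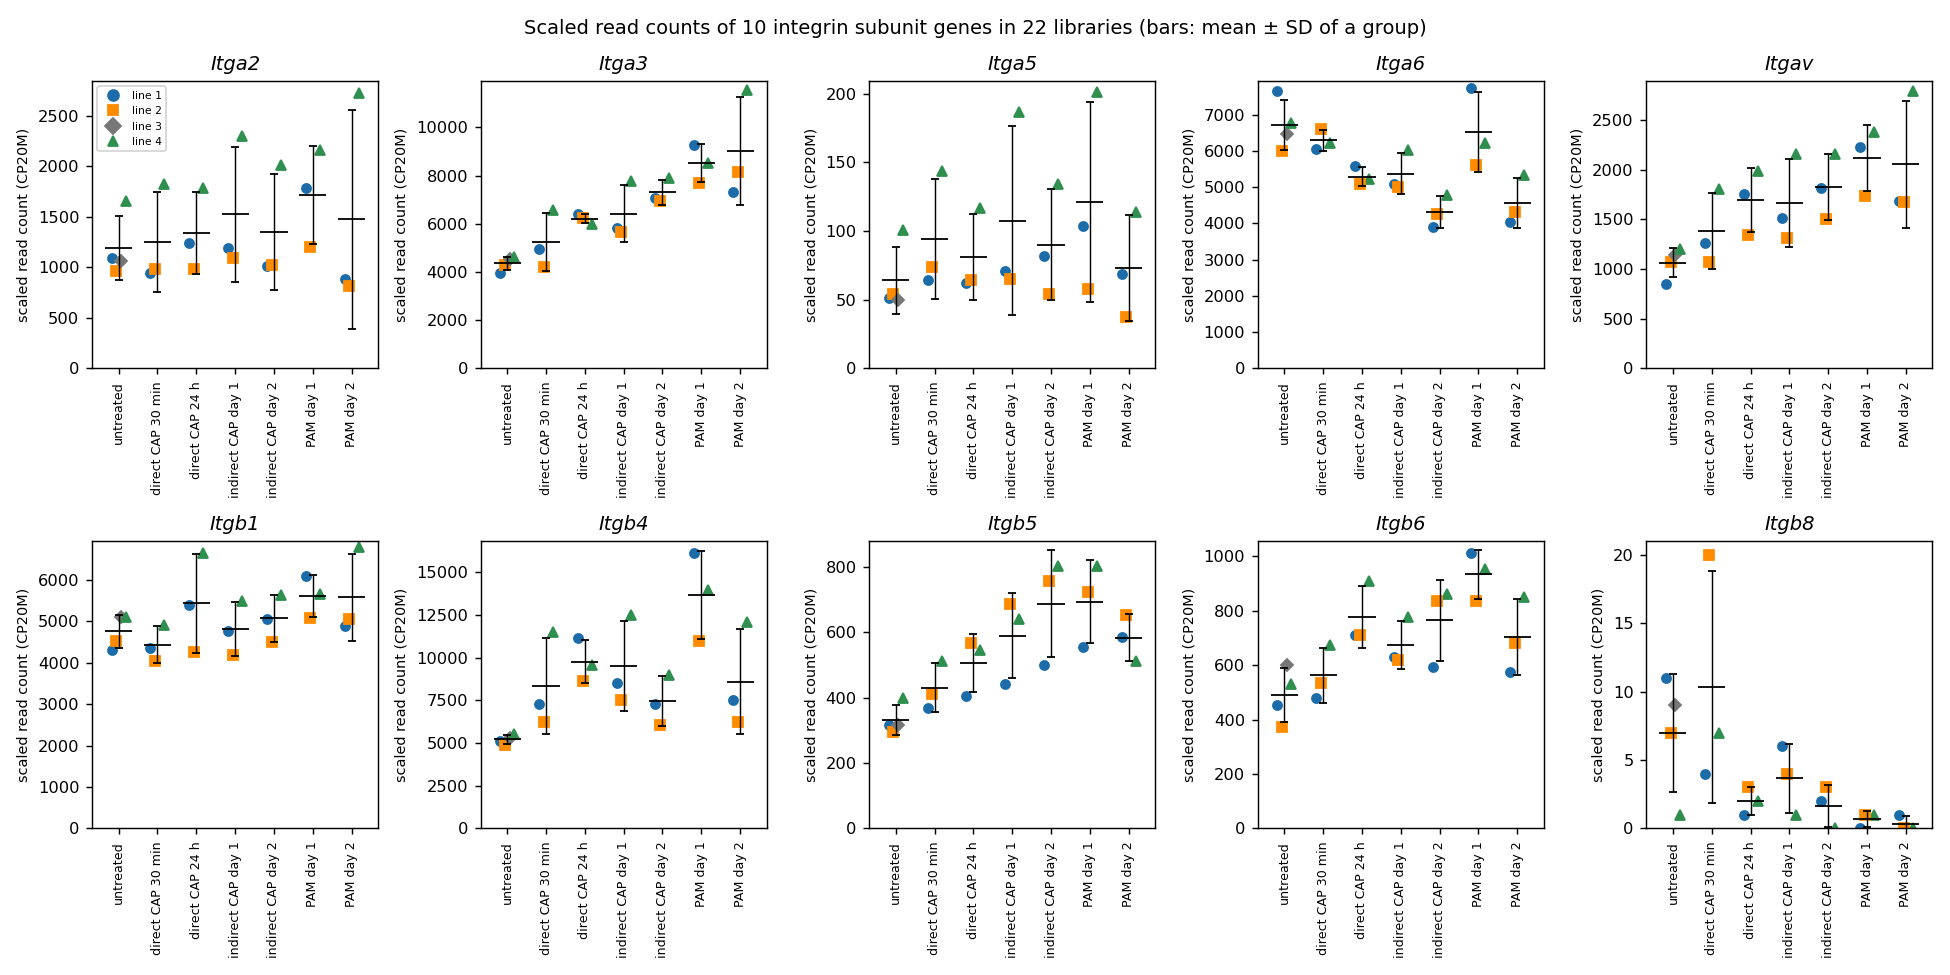
Scaled read count (CP20M, vertical axis from 0) of each of the 10 integrin genes in all 22 libraries, by group; symbols mark the organoid line, horizontal bars the group mean and whiskers the SD (n = 4 untreated, n = 3 in each treated group). Itgb4 lay between 4900 and 5518 in untreated libraries and above 5518 in all treated ones, while Itga6 was lowest in the groups given media from day 2.

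The widest comparison set these 9 libraries, of direct CAP for 24 h and of both media from day 1, against the 4 untreated ones. Itgb4, Itgb5, Itgav, Itgb6 and Itga3 were higher, by 1.60 to 2.05 times, and the other subunits did not pass. A call by the stricter rule required, in limma's moderated test on log2(value + 1), a change of at least 1 log2 together with an adjusted p (Benjamini-Hochberg) under 0.01. By that rule 1 of the 9 integrin genes tested was called higher, Itgb4, beside 4.27% of 18490 genes tested. By a looser rule, an adjusted p under 0.05 and no minimum change, 5 of 9 were higher and 0 lower, beside 14.8% of all genes higher and 18.7% lower. All 9 treated libraries lay above all 4 untreated ones for these 5 genes, beside 7.16% of all genes. The exact permutation test over libraries gave each of the 5 a two-sided p of 0.0028, the smallest it can give here. Both this test and limma take the 9 libraries as separate, although they are 3 lines used 3 times each, and with 1 value a line (3 lines against 4) the permutation test could not go below 0.0571. The median of the 9 log2 fold changes was 0.68, beside -0.05 over all genes. The comparisons of single groups below share the same 4 untreated libraries.

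Itgb4, the beta chain of the hemidesmosome (chr11:115974709-116008412 on the plus strand, GRCm38), had 5131, 4900, 5306 and 5518 in untreated lines 1 to 4. In the 9 treated libraries it ranged from 7535 to 16118 with a median of 10992. The lowest treated library was thus above the highest untreated one. The log2 fold change was 1.04 (SE 0.17, limma adjusted p = 0.000731), a 2.05-fold difference. Without the PAM library of line 4 or of line 1 it was 0.99 or 0.96, under the minimum change, and both adjusted p-values stayed under 0.01. A noncoding gene, B230344G16Rik, lies within Itgb4 on the other strand (chr11:115988052-115993715) and shares 537 of its 2024 exon bases with exons of Itgb4. Its value was between 15.6% and 16.4% of that of Itgb4 in every library. Whether counting used the strand is not given in the sources used here, so the reads of the 2 genes cannot be told apart.

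Itga6, the partner of Itgb4, did not rise with it. It had 7649, 5995, 6467 and 6767 in untreated lines 1 to 4, and the 9 treated libraries ranged from 4993 to 7738 with a median of 5575. Of these 9, 6 lay below every untreated library and 1, PAM from day 1 in line 1, lay above. The log2 fold change of -0.24 (SE 0.11, limma adjusted p = 0.109) did not pass. Without that PAM library it was -0.29 with an adjusted p of 0.0181. Over all 13 single omissions it ranged from -0.29 to -0.17, with limma adjusted p-values from 0.0181 to 0.308. The ratio of Itgb4 to Itga6 per kb was 1.0 ± 0.09 in untreated libraries (n = 4) and 2.44 ± 0.30 in the treated ones (n = 9). The untreated ratios reached at most 1.06, and across all 18 treated libraries the lowest was 1.22, in line 2 after direct CAP for 30 min. A ratio shows unequal change of the 2 transcripts and says nothing of the protein pairs on the cell.

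**Figure D2:**
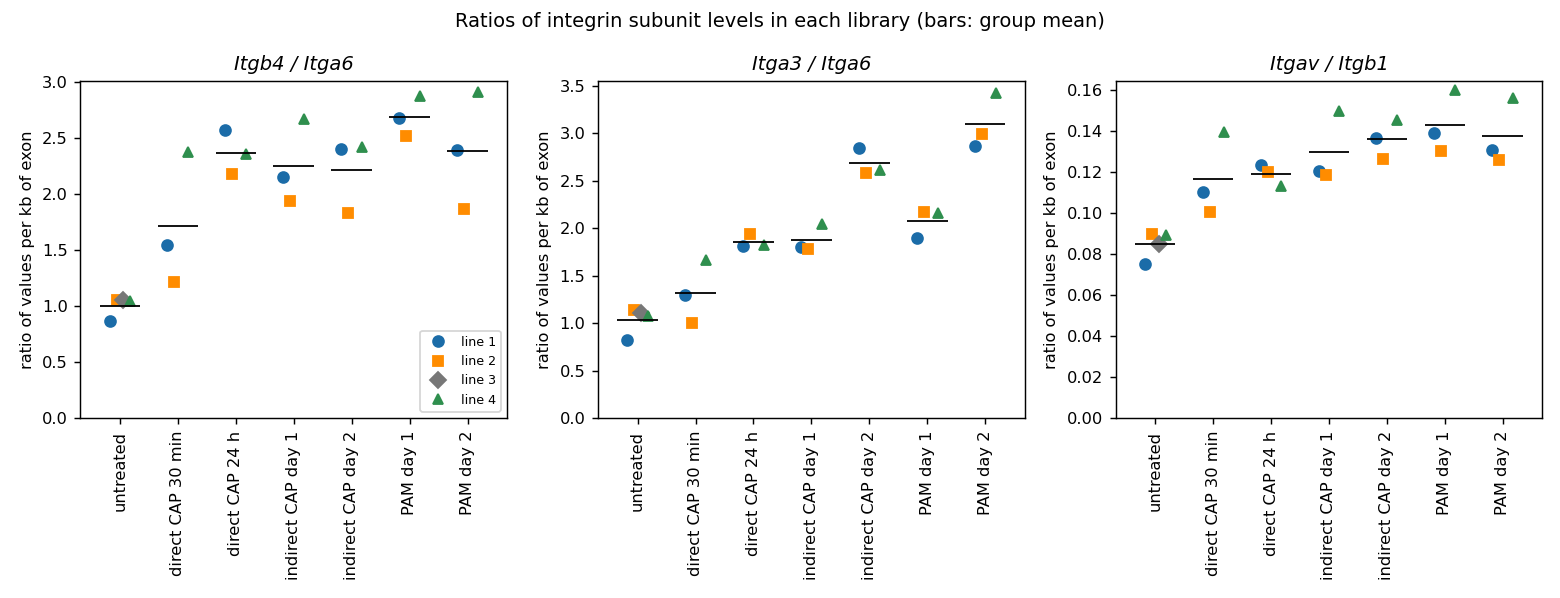
Ratios of integrin transcripts, each value divided by exon length in kb, in every library by group; symbols mark the line and bars the group mean. The ratio Itgb4 to Itga6 averaged 1.0 in untreated libraries and 2.44 in the 9 treated from day 1 with a 24 h exposure, and Itga3 to Itga6 reached 3.10 with PAM from day 2.

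Itga3, the other alpha chain for laminin, was higher. Its values were 3966, 4301, 4529 and 4606 in untreated lines 1 to 4, and from 5638 to 9279 with a median of 6411 in the 9 treated libraries. The groups did not overlap, and the log2 fold change was 0.68 (SE 0.13, limma adjusted p = 0.00182). Measured against Itga6 per kb, Itga3 moved from 1.03 ± 0.14 (n = 4) to 1.94 ± 0.15 (n = 9). The alpha chains for laminin thus differed in their transcripts, with Itga3 higher and Itga6 not.

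The alphav group was also higher in 3 of its 4 members. Itgav, the alpha chain, had 852, 1070, 1138 and 1196 in untreated lines 1 to 4 and 1310 to 2381 (median 1752) in the 9 treated libraries, a log2 fold change of 0.76 (SE 0.16, limma adjusted p = 0.00307). Itgb5, which with alphav binds vitronectin, had 315, 294, 316 and 398 in the controls and 405 to 802 (median 566) after treatment. Its log2 fold change was 0.83 (SE 0.16, limma adjusted p = 0.00214). In neither gene did treated and untreated libraries overlap, although for Itgb5 the gap was only that between 398 and 405. Itgb6, of the TGF-beta-releasing receptor, had 455, 372, 601 and 532 in the controls and 619 to 1012 (median 778) in treated libraries. The change was 0.70 log2 (SE 0.15, limma adjusted p = 0.00327), again with no overlap. Itgb8, the remaining partner, had 11, 7, 9 and 1 in the controls and 0 to 6 in the treated libraries, too low to enter the test, and its exact permutation p was 0.0532. Its highest value in any library was 20, after direct CAP for 30 min in line 2.

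The beta1 chain and its partners for collagen and fibronectin did not pass. Itgb1 had 4307, 4522, 5109 and 5101 in untreated lines 1 to 4 and 4198 to 6659 (median 5404) after treatment, with a log2 fold change of 0.14 (95% interval -0.10 to 0.39, limma adjusted p = 0.368). Itga2, of the collagen receptor, had 1089, 961, 1062 and 1657 in the controls and 982 to 2293 in treated libraries, a change of 0.32 (-0.16 to 0.81, limma adjusted p = 0.292). Itga5, of the fibronectin receptor, had 51, 54, 50 and 101 in the controls and 58 to 201 in treated libraries, a change of 0.59 (-0.15 to 1.33, limma adjusted p = 0.208). All 3 overlapped between groups, and the intervals of Itga2 and Itga5 still hold changes near those of the subunits that passed. Per kb, Itgav stood at 0.08 ± 0.01 of Itgb1 in untreated libraries (n = 4) and at 0.13 ± 0.02 in the treated ones (n = 9).

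Much of the spread of Itga2 and Itga5 lay between organoid lines. In all 6 treated groups the library of line 4 was the highest for Itga2, Itga5 and Itgav. Over these groups line 4 exceeded the mean of lines 1 and 2 by 0.97 log2 for Itga2, 1.15 for Itga5 and 0.50 for Itgav. The untreated library of line 4 was also the highest of the 4 controls for these genes, at 1657 for Itga2, 101 for Itga5 and 1196 for Itgav. Lines 3 and 4 have the same passage number in the labels, 4, against 12 and 14 for lines 1 and 2, and untreated line 3 had 1062 for Itga2 and 50 for Itga5. For Itgb5 line 1 was the lowest in 5 of the 6 treated groups.

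Each treated group was then set against the controls on its own. With 3 libraries against 4, an exact permutation test cannot go below 0.0571, so calls rest on limma across all genes. After direct CAP for 30 min, none of the 9 genes passed either rule, beside 0.00564% of all genes by each, and 2 had an unadjusted p under 0.05, beside 24.9% of all. Itgb4 there had 7268, 6264 and 11525 in lines 1, 2 and 4, all above the controls as for 12.4% of all genes, a change of 0.63 log2 (SE 0.18, limma adjusted p = 0.115). The other 8 changes lay between -0.10 and 0.52. After direct CAP for 24 h, none of 9 was called, beside 2.17% of all genes, and 6 had an adjusted p under 0.05, beside 17.3%. They were Itgb4 (0.90 log2), Itgb6 (0.68), Itgav (0.66), Itgb5 (0.61) and Itga3 (0.52), all higher, and Itga6 (-0.34), lower. Itga6 had 5575, 5081 and 5219 in lines 1, 2 and 4, all below the lowest control as for 19.1% of all genes, with a limma adjusted p of 0.0493. It was over 0.05 whichever of the 7 libraries was left out (0.0520 to 0.109), and with the replicate block by line it was 0.0859 for Itga6 and 0.0612 for Itgb5. Only Itgb4 and Itga3 kept an adjusted p under 0.05 whichever library was left out.

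With indirect CAP from day 1, again none was called, beside 1.31% of all genes, and 4 had an adjusted p under 0.05, beside 20.6%. These were Itgb4 (0.84 log2), Itgb5 (0.82), Itgav (0.62) and Itga3 (0.55). Leaving out 1 library took the adjusted p of Itgav over 0.05 for 6 of the 7 libraries (up to 0.103) and that of Itgb5 for 1 (0.0546). With indirect CAP from day 2, Itgb5 was called, 1 of 9 beside 11.9% of all genes. An adjusted p under 0.05 was reached by 6, beside 43.8% of all genes (20.3% higher and 23.5% lower). Itgb5 there had 500, 757 and 803 in lines 1, 2 and 4, a change of 1.03 log2 (SE 0.18, limma adjusted p = 0.00252). Without that group's line 4 or line 2, or without untreated line 2, it was 0.90, 0.95 or 0.98 and the call was lost. Itgav (0.77), Itga3 (0.75), Itgb6 (0.64) and Itgb4 (0.50) were the others that were higher. Leaving out 1 library took the adjusted p of Itgb6 over 0.05 for 4 of the 7 (up to 0.0845). Itga6 was lower, with 3914, 4247 and 4774, and every library lay below every control, as for 25.8% of all genes. Its change was -0.64 log2 (SE 0.10, limma adjusted p = 0.00177).

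PAM from day 1 gave the largest change of Itgb4 among the 6 groups. It had 16118, 10992 and 13944 in lines 1, 2 and 4, a change of 1.38 log2 (SE 0.13, limma adjusted p = 0.000208), a 2.60-fold difference. Itgb5 was also called, at 1.06 log2 (SE 0.16, limma adjusted p = 0.00126), so that 2 of 9 genes were called beside 10.2% of all genes. With an adjusted p under 0.05 there were 5, all higher, beside 41.8% of all genes (15.2% higher and 26.6% lower). The others were Itgav (0.99), Itga3 (0.97) and Itgb6 (0.95), all just short of 1 log2. With quantile normalization or with the line as a replicate block, 4 were called, as Itgav and Itgb6 passed 1 log2, and the count was 5 without the library of line 2, 4 without untreated line 3 and 1 without the library of line 4. Itga6 had 7738, 5609 and 6234, overlapping the controls, a change of -0.05 log2 (limma adjusted p = 0.786).

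With PAM from day 2, Itga3 was called, 1 of 9 beside 17.3% of all genes. It had 7317, 8151 and 11547 in lines 1, 2 and 4, a change of 1.02 log2 (SE 0.16, limma adjusted p = 0.00147), and without line 4 or untreated line 1 the change was 0.83 or 0.98. The count was 2 without its line 1. Quantile normalization moved the median of all genes in this comparison from -0.12 to 0.00, and Itga3 then stood at 0.96 while Itgav at 1.01 and Itgb5 at 1.11 were called in its place. With an adjusted p under 0.05 there were 5, beside 47.6% of all genes. Itgav (0.91), Itgb5 (0.82) and Itgb4 (0.67) were higher as well, and for Itgb4 leaving out any of 3 of the 7 libraries took the adjusted p over 0.05 (up to 0.0647). Itga6 was lower. It had 4026, 4307 and 5333, all below the controls as for 32.6% of all genes, a change of -0.57 log2 (SE 0.13, limma adjusted p = 0.00789). By direction, 4 of the 9 were higher by the looser rule, beside 18.5% of all genes, and 1 was lower, beside 29.1%.

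**Figure D3:**
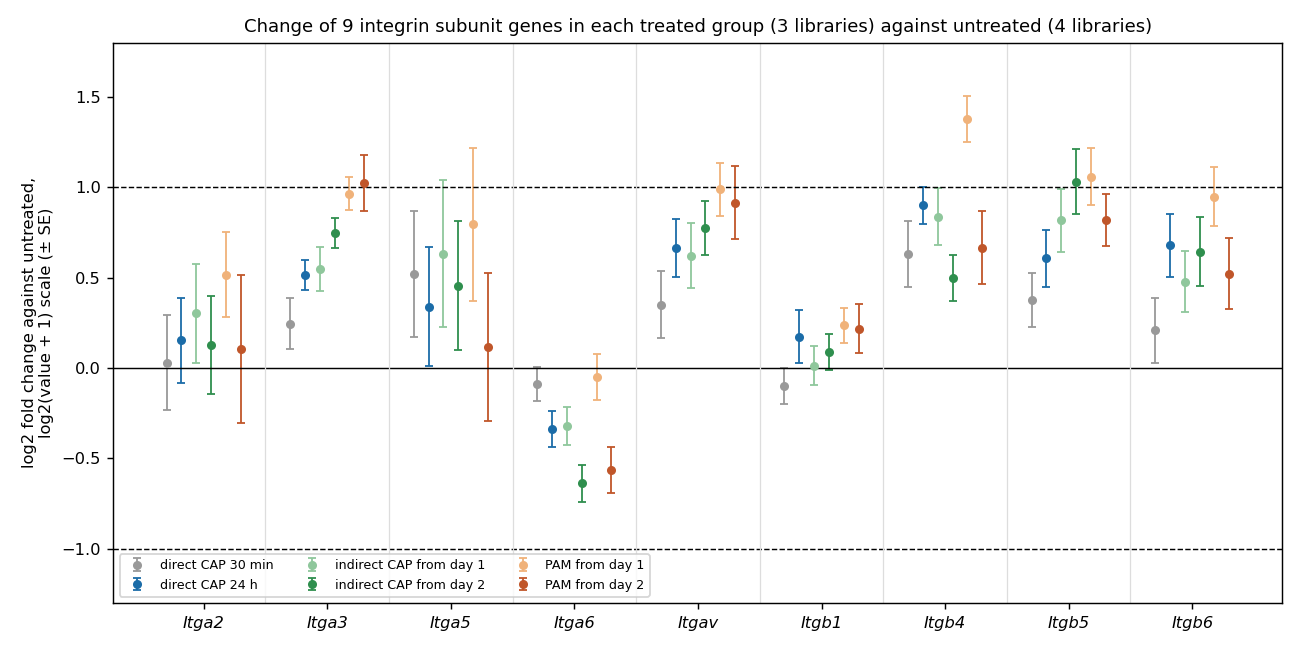
Log2 fold change against untreated (vertical axis, log2(value + 1) scale, whiskers ± SE) of the 9 integrin genes tested, for each of the 6 treated groups (n = 3 each, n = 4 untreated); dashed lines mark 1 log2 either way. Itgb4 with PAM from day 1 is the highest point at 1.38, and Itga6 with indirect CAP from day 2 the lowest at -0.64.

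Comparisons between treatments tested the differences that the groups show side by side, and without the line in the fit none of the 9 genes passed either rule in any of 4 such comparisons. For direct CAP at 24 h against 30 min, both rules called 0% of all genes in limma, and 2 of the 9 genes had an unadjusted p under 0.05, beside 21.4% of all. Itgb6 was higher at 24 h by 0.47 log2 (95% interval 0.08 to 0.87, limma adjusted p = 0.207), in 3 of 3 lines. All its libraries at 24 h lay above those at 30 min, as for 7.33% of all genes. With the line as a replicate block the limma adjusted p of Itgb6 was 0.0492. For indirect CAP from day 2 against day 1 they called 0.0111% and 3.37% of all genes, and 1 gene had an unadjusted p under 0.05, beside 21.7% of all. For PAM from day 2 against day 1 they called 0%, and 3 genes had an unadjusted p under 0.05, beside 26.8%. For PAM from day 1 against direct CAP for 24 h they called 0% and 0.258%, and again 3 genes had an unadjusted p under 0.05, beside 10.4%. The intervals come from fits without the line, although both groups of each comparison share the same 3 lines. They are wide at this number of libraries. Groups started at day 2 and at day 1 also differed in the time from exposure to collection and in the age of the medium. The part of each in the differences between start days was not tested. Itgb4 was lower with PAM from day 2 than from day 1 by -0.71 log2 (95% interval -1.34 to -0.08, limma adjusted p = 0.149), and lower in 3 of 3 lines, by -1.10, -0.81 and -0.21 in lines 1, 2 and 4. Itga6 in the same comparison had -0.52 (-0.91 to -0.12, limma adjusted p = 0.111), also lower in 3 of 3 lines. With the block, the limma adjusted p there was 0.0732 for Itgb4 and 0.0978 for Itga6. For indirect CAP from day 2 against day 1, Itgb4 had -0.34 (-0.86 to 0.18, limma adjusted p = 0.426) and Itga6 -0.32 (-0.58 to -0.05, limma adjusted p = 0.165), both lower in 3 of 3 lines. With the block these 2 had adjusted p-values of 0.0130 and 0.0114, without reaching the minimum change. Those blocked fits use treated libraries alone, where same-line pairs correlate, and the share of all genes that they call is not reported here. Itgb4 with PAM from day 1 exceeded direct CAP for 24 h by 0.48 log2 (0.07 to 0.89, limma adjusted p = 0.453), in 3 of 3 lines. Itga3 did so by 0.45 (0.18 to 0.72, limma adjusted p = 0.356), also in 3 of 3 lines. With the block, the limma adjusted p was 0.0624 for Itgb4 and 0.0682 for Itga3.

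Genes that work with these receptors were read from lists of ligands, adaptors, hemidesmosome components and the other integrin subunits, in the comparison of 9 treated with 4 untreated libraries. Among matrix proteins and other ligands, 20 of 25 could be tested and 7 were called higher and 0 lower, beside 4.27% of all genes higher, with 14 higher at an adjusted p under 0.05, beside 14.8%. The median over those tested was 1.30 log2, beside -0.05 over all genes. Among those called were Lama3 (2.86, SE 0.61, limma adjusted p = 0.00339), a chain of laminins that alpha3beta1 and alpha6beta4 bind, Ctgf (2.30, SE 0.57, limma adjusted p = 0.00725), a secreted matrix-associated protein, and Lamb1 (1.75, SE 0.39, limma adjusted p = 0.00433), a laminin beta chain. Lama3 was low, at 5, 7, 56 and 26 in the controls and 34 to 301 after treatment, and overlapped. Lamb3, another laminin beta chain, changed by 0.56 log2 (SE 0.20, limma adjusted p = 0.0425), past the looser rule only. Lama5, a laminin chain of the intestinal basement membrane picked here after its value was seen, had 1469, 1522, 1950 and 1315 in the controls and 3005 to 5883 after treatment, a change of 1.42 log2 (SE 0.17, limma adjusted p = 0.000109). The number of ligands called was between 1 and 10 when single libraries were left out, the lowest being 1 without untreated line 1 and 3 without untreated line 2.

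Of 5 hemidesmosome components, 0 were called by the stricter rule and 4 were higher at an adjusted p under 0.05, beside 4.27% and 14.8% of all genes, with a median of 0.72 log2. These were Plec (0.83), the plectin that ties beta4 to keratin, Dst (0.72), Cd151 (0.25) and Erbin (0.21). Col17a1, a hemidesmosome collagen, changed by 0.88 (SE 0.36, limma adjusted p = 0.0686). Of the 8 epithelial markers, Krt18 (0.82), Krt19 (0.60), Krt8 (0.59), Vil1 (0.40) and Cdh1 (0.30) were also higher by the looser rule in these 9 libraries, beside 14.8% of all genes. Epcam was lower (-0.37, SE 0.07, limma adjusted p = 0.00137), beside 18.7%, and the markers Cdx2 (-0.28) and Cldn7 (0.0049) did not pass. Their part in the result for Itgb4 was not tested. In bulk RNA, more cells of a type and more RNA per cell cannot be told apart. Of 24 adaptors, 20 were tested and 2 were called, both higher, beside 4.27% of all genes. Tns4, a tensin that binds beta chains, was among them (1.54, SE 0.23, limma adjusted p = 0.000427). The count was 1 without untreated line 1, 2 or 4. At an adjusted p under 0.05, 8 adaptors were higher, beside 14.8% of all genes, and 3 lower, beside 18.7%. The 3 lower ones were Lims1 (-0.39) and Ilk (-0.36), which form a complex at the beta tail, and the tensin Tns3 (-0.32). Among the 8 were the kinase Src (0.44), Pxn (0.36), which encodes paxillin, and Vcl (0.32), which encodes vinculin. Tln1, which activates integrins, Ptk2, the focal adhesion kinase, and Fermt1 changed by -0.03, -0.09 and 0.17 log2 and did not pass. The median over adaptors was 0.20.

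**Figure D4:**
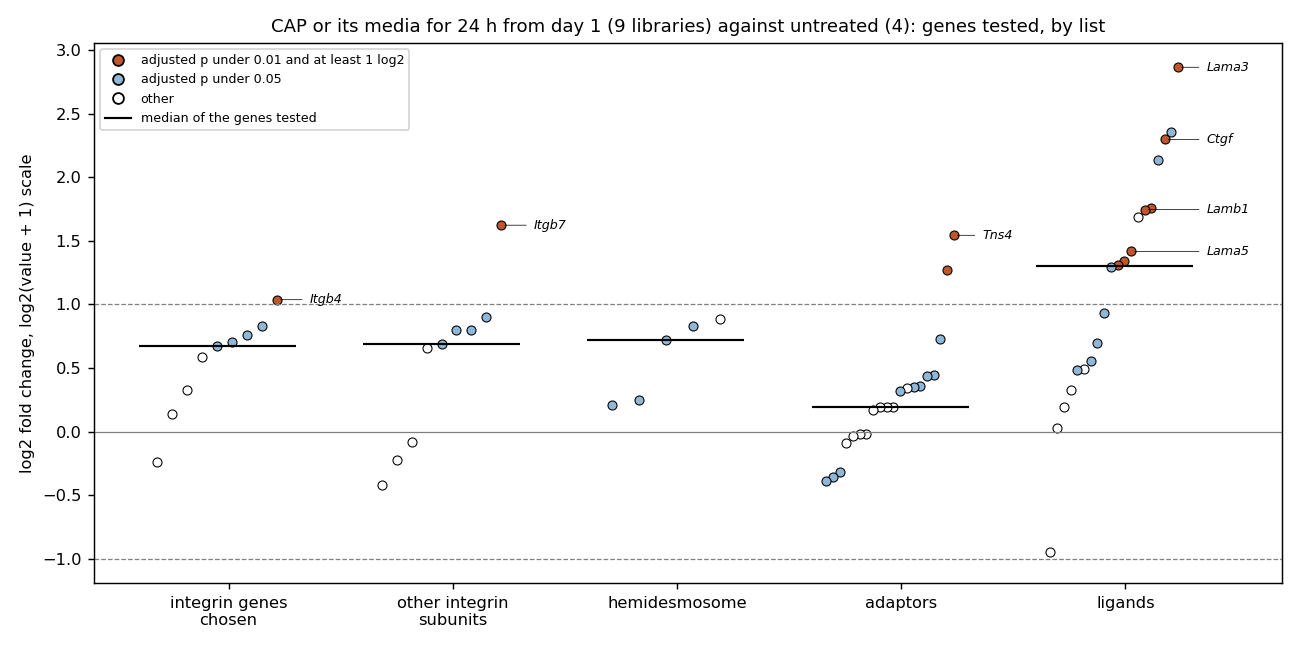
Log2 fold change (vertical axis, log2(value + 1) scale) of the genes tested in each list for 9 treated against 4 untreated libraries; filled colours mark the 2 rules, names are given for some of the genes called, and horizontal lines the median of a list. The ligands have the highest median, 1.30, against 0.68 for the integrin genes and 0.20 for the adaptors.

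Of the 17 integrin subunits outside the 10 genes, 9 could be tested and 1 was called higher, Itgb7, beside 4.27% of all genes, with 5 higher at an adjusted p under 0.05, beside 14.8%. Itgb7, a beta chain known from lymphocytes, had 7, 4, 14 and 7 in untreated lines 1 to 4 and 14 to 37 in the 9 treated libraries (1.62 log2, SE 0.29, limma adjusted p = 0.00127), and with a pseudocount of 10 it was not called. Among the controls only line 3 reached 10, so Itgb7 entered the test through the treated libraries, which favours a call of higher. The share of 4.27% is not limited to genes admitted in this way. Without untreated line 3 the count was 2. The leukocyte marker Cd68, a lysosomal protein, was also called (1.35 log2, SE 0.20, limma adjusted p = 0.000427), at 16 to 27 in the controls and 42 to 86 after treatment. In the same libraries the sum of leukocyte markers was 355 to 462, against 418 to 485 in the controls. Apart from Cd68, Lyz2 was the one leukocyte marker past the looser rule, and it was lower, at -1.24.

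Genes whose values followed the integrins most closely were sought by Pearson correlation of log2(value + 1) over the 22 libraries, among genes with a mean value of at least 50. The subunits with the widest range of group means were Itgb8 (2.91 log2), which is too low for such a search, Itgb4 (1.38), Itgb5 (1.06) and Itga3 (1.02). For Itgb4 the closest were B230344G16Rik (r = 0.999), which lies inside it, Slc22a23 (0.957) and Gm26811 (0.956). For Itgb5 they were Gfpt1 (0.935), Adam15 (0.906) and Nt5e (0.896), and for Itga3 they were Golga2 (0.981), Myo18a (0.976) and Mvp (0.974). The 22 points share lines and treatments, so these are descriptions of likeness. Among the integrins, Itgav followed Itga3 over the 22 libraries (r = 0.930), whereas Itga6 followed Itgb4 at r = 0.110. With group means removed, which leaves differences between lines and between single libraries, Itga6 followed Itgb4 at r = 0.622 and Itgav followed Itga3 at r = 0.875.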

How the data were processed

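RNA from mouse duodenal organoids was sequenced as 22 libraries. Per the labels, the processing tools include Trimmomatic 0.36, STAR 2.5.3a and HTSeq 0.9.1, with GRCm38.p4 (mm10), and the authors used edgeR. The deposited values are a score for each gene in each library: counts that the authors multiplied to a total of 20 M and rounded up. The authors' text defines the unit per kilobase, which the spacing of low values does not show. Unscaled counts were not used here, so no count test was run. At this scale a value of 10 is about 10 reads, and counting error is large there. No library was a copy of another among 24 pairs of replicates.

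The moderated test of limma 3.58.1 (with trend, in R 4.3.3) was run on log2(value + 1) for genes reaching 10 in 3 or more of the libraries fitted, and fold changes are on that scale, which understates those of low genes. The method found 200 of 200 changed genes in simulated data. There each changed gene had a mean of at least 50 and moved by 2 log2 either way, with no effect of line. Changes as small as those of the integrins were not simulated, so their recovery is not known from it. Single genes were compared by exact permutation of libraries, two-sided, as 2 times the smaller tail. Coordinates and exon lengths came from GENCODE vM21 (GRCm38), which matched 52403 genes. Figures used matplotlib 3.10.9 in Python 3.11.15. Replicate numbers are organoid lines: treated libraries of the same line correlated after removal of group means (median 0.564 over 45 pairs, 45 above 0.1). Those of other lines had a median of -0.330, with 9 of 90 pairs above 0.1. Removing the mean of a group of 3 libraries by itself pushes correlations between lines below 0, so that negative median is no evidence. The untreated libraries of lines 1 and 2 did not follow their line. The line as a replicate block was an alternative, as were no filter, quantile normalization, 1 fit of all groups, a pseudocount of 10, the looser rule and leaving out each library.

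The 10 genes, the lists and the tests were chosen with earlier results of these data known. The genes named are the 10 integrins, up to 4 genes a direction in each list past the stricter rule, and the 3 genes most like the integrins of the widest range. Other genes named were picked after their values were seen. A second identifier under the name Itgam, which GENCODE gives to another gene model, was left out. Results for some genes of the lists are not reported here.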

Additional observations from a re-analysis of the deposited data

Results flagged for a closer look

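Of 20 checks, 10 genes in the untreated group and in the 9 treated libraries, 2 found a library far from the others, where chance gives about 1 in 20. Itga5 in untreated line 4 was at 101, against 54 in the next library. Without it the change of Itga5 in the 9 treated libraries was 0.83 log2 (limma adjusted p = 0.116). Itga6 with PAM from day 1 in line 1 was at 7738, against 6234 in the next of the 9. Without it the change of Itga6 was -0.29 log2 (limma adjusted p = 0.0181), past the looser rule, where it was -0.24 (0.109) with it. Leaving out other libraries took it as far as -0.17 log2, and the limma adjusted p as high as 0.308.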

How the results depend on the processing

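The looser rule (adjusted p under 0.05, no minimum change) raised the integrin genes called from 1 to 5 in the 9 libraries, from 0 to 6 with direct CAP for 24 h, from 0 to 4 with indirect CAP from day 1, from 1 to 6 from day 2, and from 2 to 5 and 1 to 5 with PAM from day 1 and day 2. It raised ligands from 7 to 14, adaptors from 2 to 11, hemidesmosome genes from 0 to 4 and other integrins from 1 to 5. Quantile normalization gave 4 integrin genes with PAM from day 1 and 2 with PAM from day 2. The replicate block gave 4 with PAM from day 1, 11 ligands and 2 other integrins, and a pseudocount of 10 gave 0 other integrins. The pairing of untreated lines 1 and 2 in these blocked fits is in doubt. The block turned Itga2 with direct CAP for 30 min from 0.03 to -0.015 log2 and moved no other count by over 1.5 times. By the looser rule the block gave 4 integrin genes with direct CAP for 24 h, 5 with indirect CAP from day 1, and 6 with PAM from either day.

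Leaving out 1 library at a time gave 0 to 1 integrin genes in the 9 libraries, 0 to 1 with indirect CAP from day 2, 1 to 5 and 0 to 2 with PAM from day 1 and day 2, and 0 in the other 7 comparisons. The lists gave 1 to 10 ligands, 1 to 2 adaptors, 1 to 2 other integrins and 0 hemidesmosome genes. The call of Itgb5 with indirect CAP from day 2 was lost without that group's line 4 (0.90 log2) or line 2 (0.95) or without untreated line 2 (0.98), and with PAM from day 1 without its line 4 (0.95). With PAM from day 1 the count was 4 without untreated line 3. That of Itga3 with PAM from day 2 was lost without its line 4 (0.83) or untreated line 1 (0.98), and without its line 1 the count was 2. Adaptors fell to 1 without untreated line 1, 2 or 4, and other integrins rose to 2 without line 3.

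The changes that turned direction when a library was left out had failed both rules. For Itga2 they ranged from -0.28 to 0.20 log2 with direct CAP for 30 min, -0.077 to 0.35 for 24 h, -0.035 to 0.50 and -0.20 to 0.30 with indirect CAP from day 1 and day 2, -0.45 to 0.41 with PAM from day 2, -0.11 to 0.43 for direct CAP at 24 h against 30 min and -0.50 to 0.16 for indirect CAP from day 2 against day 1. Itga5 ranged from -0.27 to 0.53 with PAM from day 2, -0.48 to 0.17 for direct CAP at 24 h against 30 min and -0.51 to 0.30 for indirect CAP from day 2 against day 1. Itgb1 ranged from -0.084 to 0.11 with indirect CAP from day 1, -0.019 to 0.17 between its start days, -0.17 to 0.069 between start days of PAM and -0.10 to 0.22 for PAM against direct CAP. Itga6 ranged from -0.18 to 0.053 with PAM from day 1. Between start days, Itgav ranged from -0.0026 to 0.36 for indirect CAP and -0.32 to 0.049 for PAM, and Itga3 from -0.14 to 0.19 for PAM. Of 1305 values of single integrin genes under other settings, 1223 kept direction and side of the threshold, 39 newly passed, 9 no longer did and 34 turned direction. The looser rule was counted among these settings, and there a gene newly passed because the threshold was lowered in the same fit. The cause of these changes was not tested. With 3 libraries a group and no line in the fit, the intervals of differences between treatments stayed wide, and Itgb8 is below what this depth can compare. That replicates came from separate cultures is known only through their lines.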

Other observations

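Itgam, an integrin chain of myeloid cells, was at 68 in untreated line 1 and 19 in untreated line 2, whereas the treated libraries of line 1 had 15 to 19 and those of line 2 had 24 to 62. In line 4 it was at 10 untreated and 1 to 14 treated. These values follow the line in the treated libraries, and in the untreated libraries of lines 1 and 2 they lie the other way round.

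With media from day 2, further integrin and hemidesmosome genes passed the stricter rule against the controls. With indirect CAP from day 2, 5 of 9 tested subunits outside the 10 genes were called, all higher, beside 6.2% of all genes. Itga1, an alpha chain for collagen, changed by 1.02 log2 (SE 0.23, limma adjusted p = 0.00769), and Itga2b (1.92), Itga11 (1.87), Itgb2l (1.41) and Itgb7 (2.13) were the others, all at low values. A gene under 10 in the controls enters the test only through treated libraries where it is high, so it could be called only higher. Itga11 was too low for the test in the 9 libraries from day 1. The share of 6.2% is over all genes and not over genes admitted in this way. In the same libraries 3 of 8 stromal markers could be tested. Col1a1, at 10 to 13 against 0 to 4 in the controls, and Acta2, at 10 to 13 against 2 to 9, were higher at an adjusted p under 0.05, and Vim, at 10 to 18 against 32 to 48, was called lower. Col1a1 and Acta2 were under 10 in every control, so they entered the test only through the treated libraries. Their direction was fixed by that filter. The sum of the 8 was 37 to 44 against 43 to 72, Lum and Dcn were at 0 in these libraries, and the part of these markers in the result was not tested. Col17a1 had 13, 15, 39 and 13 in untreated lines 1 to 4. It had 90, 105 and 164 in lines 1, 2 and 4 with indirect CAP from day 2 (2.63 log2, SE 0.41, limma adjusted p = 0.00147) and 94, 127 and 184 with PAM from day 2 (2.80 log2, SE 0.43, limma adjusted p = 0.00149). With PAM from day 2, Plec (1.11) and Dst (1.02) were called too, 3 of 5 hemidesmosome genes beside 6.82% of all genes higher. These genes were named after their values were seen.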
